A study of Homo sapiens with 9 samples.

Results

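The 41 genes described here encode the glucose transporters, the enzymes of glycolysis, the enzymes and carriers that handle lactate, the kinases that set the flow of glucose carbon, and the transcription factors, oxygen sensors and induced genes of the hypoxia response. They were picked by gene symbol from 60966 genes in the deposited tables, for their known roles. The rule used no measured value, but the list was drawn up with earlier results of these data known. All 41 symbols matched exactly 1 gene. For a test, a gene had to reach 1 FPKM in 3 or more of the 9 samples. Of the members, 37 did so, and the 4 that did not were ALDOC, PDK4, EGLN3 and CA9. FPKM counts fragments per kilobase of transcript, scaled to the sequencing depth of the sample. It is a level per unit of transcript length, so that levels can be compared between genes.

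Glycolysis splits glucose into pyruvate in the cytosol and yields ATP without oxygen. In many tumours much of the pyruvate is turned into lactate even when oxygen is present, which is known as the Warburg effect. Under low oxygen, the prolyl hydroxylases no longer mark the HIF alpha subunits for destruction, and the stabilised HIF factors bind short DNA elements near many of these same genes, so that glycolytic enzymes are also classical hypoxia-induced genes. GAPDH, a step in the middle of the pathway, is also widely used as a loading control.

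H1299 is a human non-small cell lung cancer line derived from a lymph node metastasis. The cells were grown in humidified air with CO2, and the labels name no low-oxygen treatment. They were transfected for 48 h with Scramble, a control siRNA with no intended target, or with 1 of 2 siRNAs against FIBP, Si-FIBP#1 and Si-FIBP#2, with 3 samples in each of the 3 groups. All 9 samples therefore carry the transfection, and the labels do not say whether the 3 samples of a group came from separate cultures, so that the tests measure the spread between these samples. FIBP, which encodes an intracellular protein that binds acidic fibroblast growth factor, stood at 77.7 to 88.4 FPKM in Scramble, at 4.3 to 7.77 in the Si-FIBP#1 samples and at 5.92 to 8.21 in the Si-FIBP#2 samples, which was 7.96% and 8.66% of the Scramble mean.

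The value steps in the tables put the depth at an estimated 20050000 to 23550000 fragments per sample, and 13894 to 14715 genes reached 1 FPKM. Of the epithelial markers, KRT8 (67.2 to 108 FPKM) and KRT18 (143 to 483) were high, whereas KRT19, EPCAM and CDH1 did not exceed 0.29 FPKM. The mesenchymal marker VIM stood at 1592 to 3369 FPKM. The 4 lung alveolar markers did not exceed 0.66 FPKM, and PTPRC, PECAM1 and COL3A1 did not exceed 0.27 FPKM. The fibroblast marker COL1A1 ran from 0.03 to 0.14 FPKM in the Scramble samples and from 0.35 to 1.59 in the 6 FIBP-depleted samples.

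Because an element in many of these promoters is part of what the genes are known for, stretches of 30 bases upstream of the start site are shown for 8 members. They come from RefSeq promoter windows of 300 bases on GRCh38.p14, which was not necessarily the build used for the deposited values, and are written 5′ to 3′ on the strand of the gene. Capitals mark the core of the HIF-binding element, ACGTG or GCGTG, on either strand (CACGT or CACGC on the other strand). CACGTG, the E-box bound by MYC and USF factors, holds ACGTG on both strands and therefore overlaps it.
GAPDH (chr12:6535162-6535191, + strand): tcctttcgcgctctgcggggtCACGTGtcg
PGK1 (chrX:78104024-78104053, + strand): cttgcggttcgcgGCGTGccggACGTGaca
ENO1 (chr1:8878845-8878874, - strand): cgcgggacgtcacccccctttcCACGCtac
ALDOA (chr16:30064364-30064393, + strand): cagggagggtggcagggaggcCACGTGatc
LDHA (chr11:18394468-18394497, + strand): ccgactcaCACGTGggttcccgCACGTccg
HK2 (chr2:74834057-74834086, + strand): ccgcgcagccaatggGCGTGcgCACGTcac
BNIP3 (chr10:131982041-131982070, - strand): cgcgCACGCgccgCACGTGccaCACGCacc
P4HA1 (chr10:73096945-73096974, - strand): ggggcgctggtgtgatcgagctCACGTagc

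In the whole 300 bases, ACGTG or GCGTG was present in 65.2% of the 66 windows of the 36 members that had an entry and in 48.4% of all 35116 windows. ACGTG, with or without GCGTG, was present in 39.4% and 21.4%, GCGTG, with or without ACGTG, in 39.4% and 36.5%, and CACGTG in 15.2% and 7.26%. In 6 of the 36 members, SLC2A1, PGAM1, PKM, LDHB, PDK4 and EGLN3, the bases upstream of the start held no ACGTG or GCGTG. A match describes the letters in the window and is not a measured binding site, and SLC2A3, SLC16A1, PFKFB2, VEGFA and NDRG1 had no entry.

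FIBP depletion was accompanied by lower levels of several abundant glycolytic enzymes, GAPDH, ENO1, PKM and ALDOA among them. Summed over the 16 enzyme genes from hexokinase to pyruvate kinase, the level was 13602, 12505 and 12521 FPKM in Scramble replicates 1 to 3, 9979, 9762 and 9224 in the Si-FIBP#1 samples, and 10222, 8962 and 10033 in those of Si-FIBP#2. Every depleted sample lay below every Scramble sample. These genes took 1.64% ± 0.074 (SD, n = 3) of all FPKM in the Scramble samples, 1.19% ± 0.041 with Si-FIBP#1 and 1.24% ± 0.081 after Si-FIBP#2. GAPDH made up 55.7% of that sum in the Scramble samples. Without GAPDH, the sums were 5702 ± 219, 4509 ± 89.6 and 4553 ± 59.4 FPKM. In these bulk samples, fewer cells of a type and less RNA per cell cannot be told apart, and FPKM are relative to all the RNA of a sample.

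The tests came from limma, fitted once to log2(FPKM + 1) of 14985 genes across the 9 samples, and a gene passed at a Benjamini-Hochberg adjusted p under 0.05. With Si-FIBP#1, 13 of the 37 members passed it on the lower side and 9 on the higher side, against 19.9% and 27.8% of all genes tested. With Si-FIBP#2, 12 were lower and 8 higher, against 17.7% and 31.1% of all genes. In this fit, the share of members on the lower side (13 and 12 of 37) was thus above that of all genes, and the share on the higher side below it. The counts on each side varied with Scramble replicate 1 and with the scaling. Without that sample, 11 members were higher and 10 lower with Si-FIBP#1. The share on the higher side was then above that of all genes. With Si-FIBP#2, 9 were higher and 11 lower without it, and the higher share remained below that of all genes. The share on the lower side remained above that of all genes with either siRNA in the fit without Scramble replicate 1. Under median-ratio scaling, which sets the median gene near 0, 15 members were lower and 6 higher with Si-FIBP#1 (all genes 24.1% and 22.5%), and 13 were lower and 3 higher with Si-FIBP#2 (all genes 24.55% and 22.3%). Over 2-fold changes were few. With Si-FIBP#1, 1 member was lower and 1 higher by over 2-fold, against 3.11% and 2.55% of all genes. With Si-FIBP#2, 2 were lower and 1 higher, against 2.13% and 2.92%. These shares of all genes rested on the pseudocount. With 0.1 in place of 1 they came to 4.33% on the lower and 5.67% on the higher side for Si-FIBP#1, and to 3.06% and 6.36% in the other comparison, while the member counts were the same. Both comparisons use the same 3 Scramble samples, so that their values stand side by side below and are not independent. The median log2 fold change of the 37 members was -0.0029 for Si-FIBP#1 and -0.0034 for Si-FIBP#2, while that of all genes was 0.073 and 0.11. Without Scramble replicate 1, the medians were 0.0152 and 0.1115 for the members and 0.0882 and 0.1227 for all genes, close together with Si-FIBP#2. Under median-ratio scaling, they were -0.0525 and -0.0983 for the members and 0.0037 and 0.0047 for all genes.

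**Figure D1:**
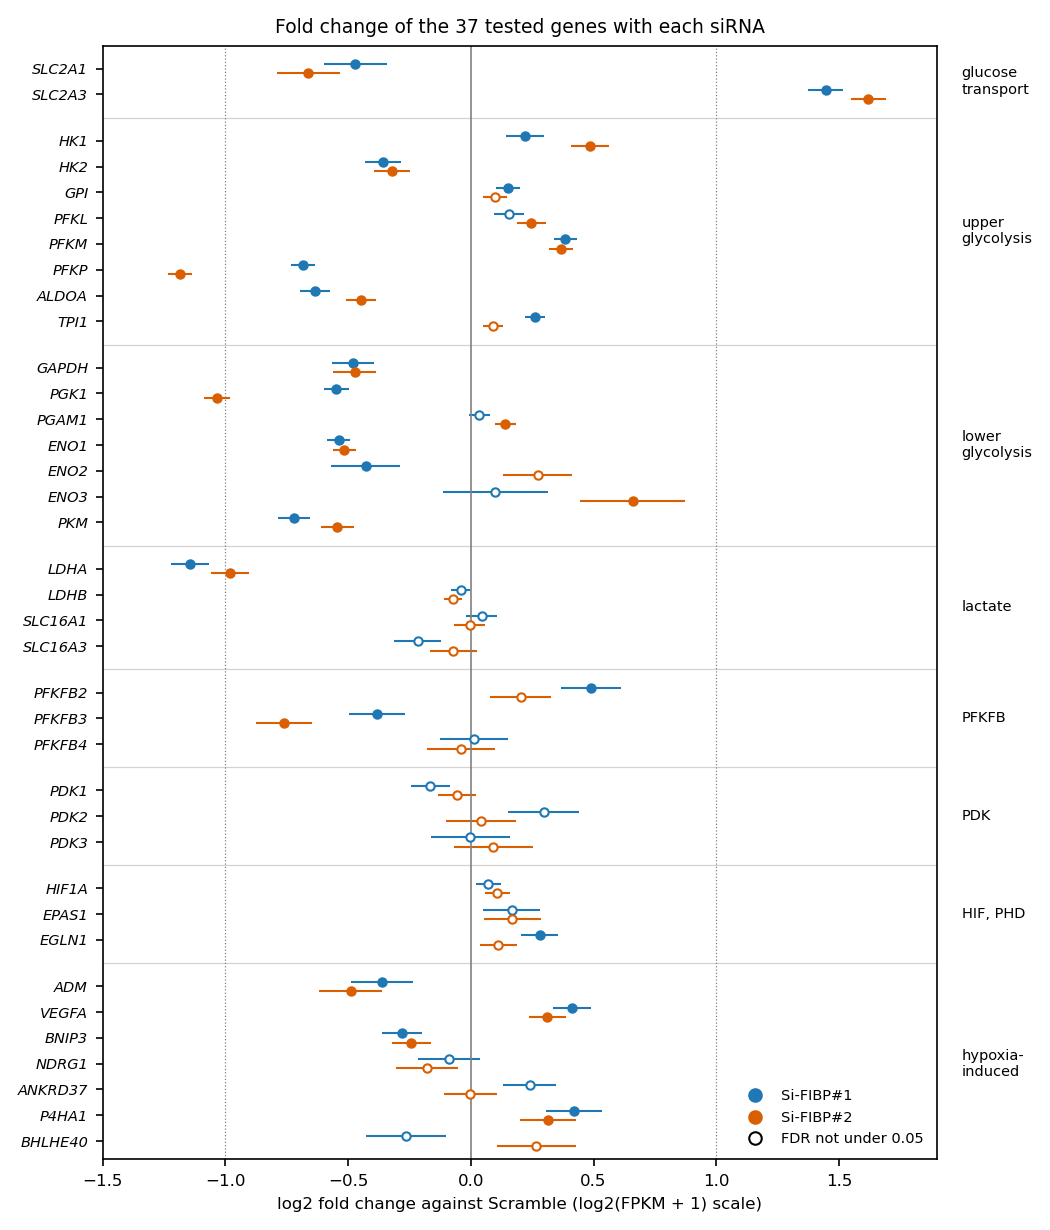
Log2 fold change against Scramble of each tested member (horizontal axis, on the log2(FPKM + 1) scale) with Si-FIBP#1 (blue) and Si-FIBP#2 (orange), grouped by role. Bars are standard errors from the limma fit, open circles did not pass the adjusted p of 0.05 and the dotted lines mark a 2-fold change. SLC2A3 lies farthest to the right, and PFKP, PGK1 and LDHA lie farthest to the left.

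The glucose transporters changed in opposite directions. SLC2A3, which encodes the high-affinity neuronal-type transporter GLUT3, stood at 14.3, 13.5 and 12.2 FPKM in Scramble replicates 1 to 3, at 37.9, 36.7 and 39.3 with Si-FIBP#1, and at 42.8, 40.4 and 45.8 with Si-FIBP#2. The groups were far apart, with the lowest depleted sample above the highest Scramble sample. This was 285% and 323% of the Scramble mean, a log2 fold change of 1.45 ± 0.072 (SE) with adjusted p = 7.9e-07 (limma) for Si-FIBP#1 and 1.62 ± 0.072 with adjusted p = 6.7e-07 for Si-FIBP#2. SLC2A3 had the largest rise of all 37 members. The 3 pseudogenes named after SLC2A3 together had 5.59% of its level, although reads could have been split between them. Similar genes under other names were not examined.

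SLC2A1, which encodes GLUT1, the transporter of basal glucose uptake, stood at 48.5, 45.6 and 47.3 FPKM in Scramble, at 35.9, 28.1 and 37.9 with Si-FIBP#1, and at 34.4, 24.7 and 29.9 with Si-FIBP#2. All 6 depleted samples were below the 3 Scramble samples. Its log2 fold change was -0.47 ± 0.13 (adjusted p = 0.0138, limma) and -0.66 ± 0.13 (adjusted p = 0.0023). The size of the fall rested on a short transcript. ENST00000426263, with 3384 nt the most abundant form, fell from 33.2 ± 2.33 FPKM to 18.2 ± 1.198 and 15.2 ± 0.32 (SD, n = 3). ENST00000676097, a 271 nt form close to the size of a fragment, varied between 2.51 and 16.7 FPKM and made up 17.2% of the gene in the Scramble samples and 39.4% and 37.7% in the depleted ones. Without transcripts under 400 nt, an alternative chosen after seeing the data, the log2 fold changes were -0.88 and -1.03 (adjusted p = 5.28e-05 and 1.77e-05).

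Together the shift turned the ratio of the pair around. SLC2A3 made up 22.0% ± 1.30 (SD, n = 3) of the FPKM of SLC2A1 and SLC2A3 in the Scramble samples, 52.96% ± 3.18 with Si-FIBP#1 and 59.4% ± 3.48 after Si-FIBP#2. The summed level of both was 60.4 ± 2.05 FPKM in Scramble, 71.9 ± 6.41 with Si-FIBP#1 and 72.7 ± 6.66 in the Si-FIBP#2 group. These shares and sums include the 271 nt form of SLC2A1 and were not computed without it.

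**Figure D2:**
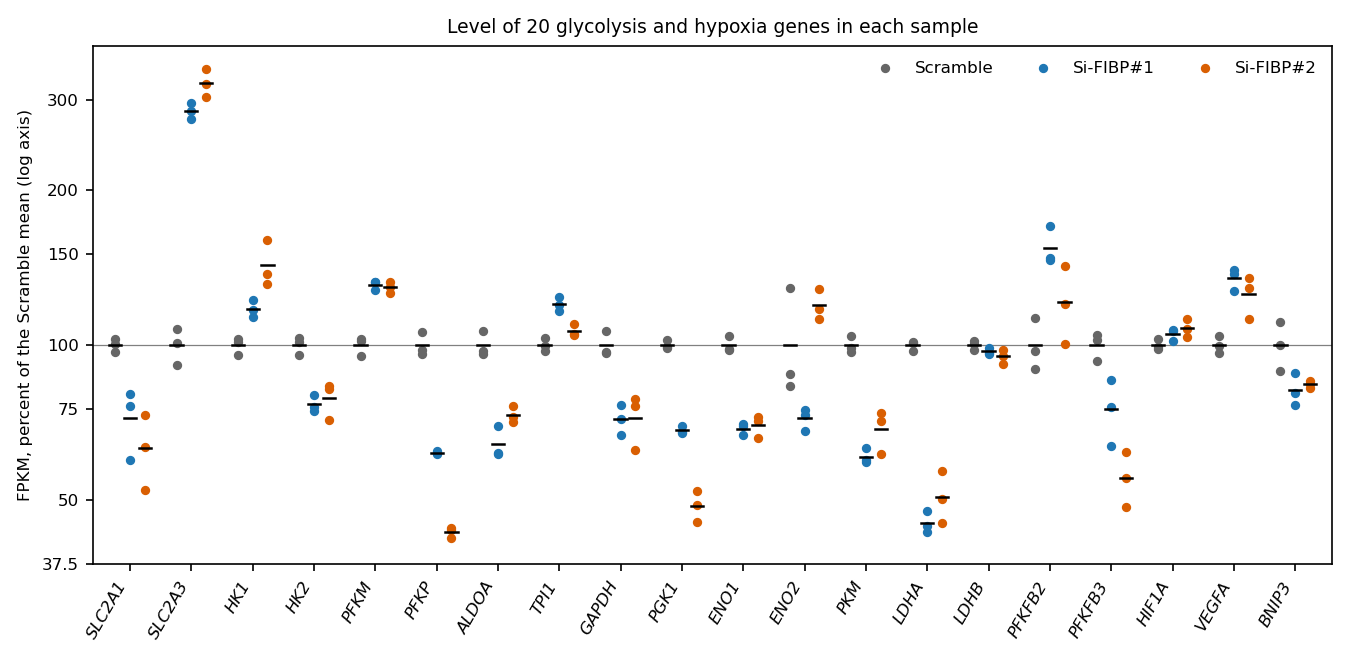
FPKM of selected members in each sample as a percentage of the Scramble mean of that gene (vertical log axis), with points for the samples and black lines for the group means. SLC2A3 is near 300% in the depleted samples, LDHA is near 50%, PFKP and PGK1 are lower with Si-FIBP#2 (orange) than with Si-FIBP#1 (blue), and LDHB and HIF1A remain near 100%.

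In the upper part of glycolysis, which spends ATP to split glucose, the hexokinases and phosphofructokinases shifted between isozymes. HK1, the broadly expressed hexokinase, had means of 17.1 ± 0.63, 20.1 ± 0.80 and 24.4 ± 2.60 FPKM (SD, n = 3) in Scramble, Si-FIBP#1 and Si-FIBP#2. HK2, the inducible form that dominates in many tumours, had 16.01 ± 0.61, 12.3 ± 0.44 and 12.6 ± 1.05. The log2 fold changes of HK1 were 0.22 ± 0.078 (adjusted p = 0.042, limma) and 0.49 ± 0.078 (adjusted p = 0.00074). Those of HK2 were -0.36 ± 0.074 (adjusted p = 0.0031) and -0.32 ± 0.074 (adjusted p = 0.0055). Assembled transcripts carried 38.9% of HK2, and on annotated transcripts alone its falls of -0.22 and -0.31 did not pass (adjusted p = 0.238 and 0.104). HK1 with Si-FIBP#1 passed in 2 of the 9 fits that left out 1 sample. The values of the other 7 ran from 0.19 without Si-FIBP#1 replicate 3 (adjusted p = 0.121) to 0.25 without Si-FIBP#1 replicate 1 (adjusted p = 0.0562), and the call was also lost without each Scramble replicate, Si-FIBP#1 replicate 2 and Si-FIBP#2 replicate 3. TPM scaling (0.18, adjusted p = 0.104), median-ratio scaling (0.15, adjusted p = 0.133) and no filter (adjusted p = 0.0764) ended it as well. Their summed level was 33.1, 32.4 and 37.1 FPKM, and HK1 made up 51.6%, 62.0% and 65.8% of it.

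Phosphofructokinase catalyses the first committed step. PFKP, the platelet-type isozyme, was the most abundant of the 3 in the Scramble samples, at 102, 94.1 and 92.5 FPKM. It stood at 59.0, 59.9 and 59.4 with Si-FIBP#1 and at 42.1, 42.4 and 40.6 with Si-FIBP#2. The 3 groups did not overlap, and the replicates within each depleted group lay within 2 FPKM of each other. Its log2 fold change was -0.68 ± 0.050 (adjusted p = 6e-06, limma) and -1.19 ± 0.050 (adjusted p = 6.3e-07), the largest fall of any member with Si-FIBP#2. PFKM, the muscle-type isozyme, rose from 54.5 ± 2.18 FPKM to 71.4 ± 1.55 and 70.6 ± 1.79 (log2 fold change 0.38 and 0.37, adjusted p = 0.00017 and 0.00023). PFKL, the liver-type isozyme, had 51.5 ± 4.35, 57.2 ± 1.43 and 61.1 ± 0.64 FPKM and passed with Si-FIBP#2 (0.25 ± 0.061, adjusted p = 0.0082) but not with Si-FIBP#1 (0.15 ± 0.061, adjusted p = 0.0639). Without Scramble replicate 1, which had the highest PFKL of its group, the value with Si-FIBP#1 was 0.22 (adjusted p = 0.00854). Under median-ratio scaling PFKL with Si-FIBP#2 was 0.13 (adjusted p = 0.0856). PFKP thus made up 47.6% of the phosphofructokinase FPKM in the Scramble samples, 31.6% with Si-FIBP#1 and 24.0% after Si-FIBP#2, and PFKM became the most abundant at 38.0% and 40.7%. The summed level of the 3 genes was 202 ± 10.3, 188 ± 1.86 and 173 ± 1.30 FPKM.

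**Figure D3:**
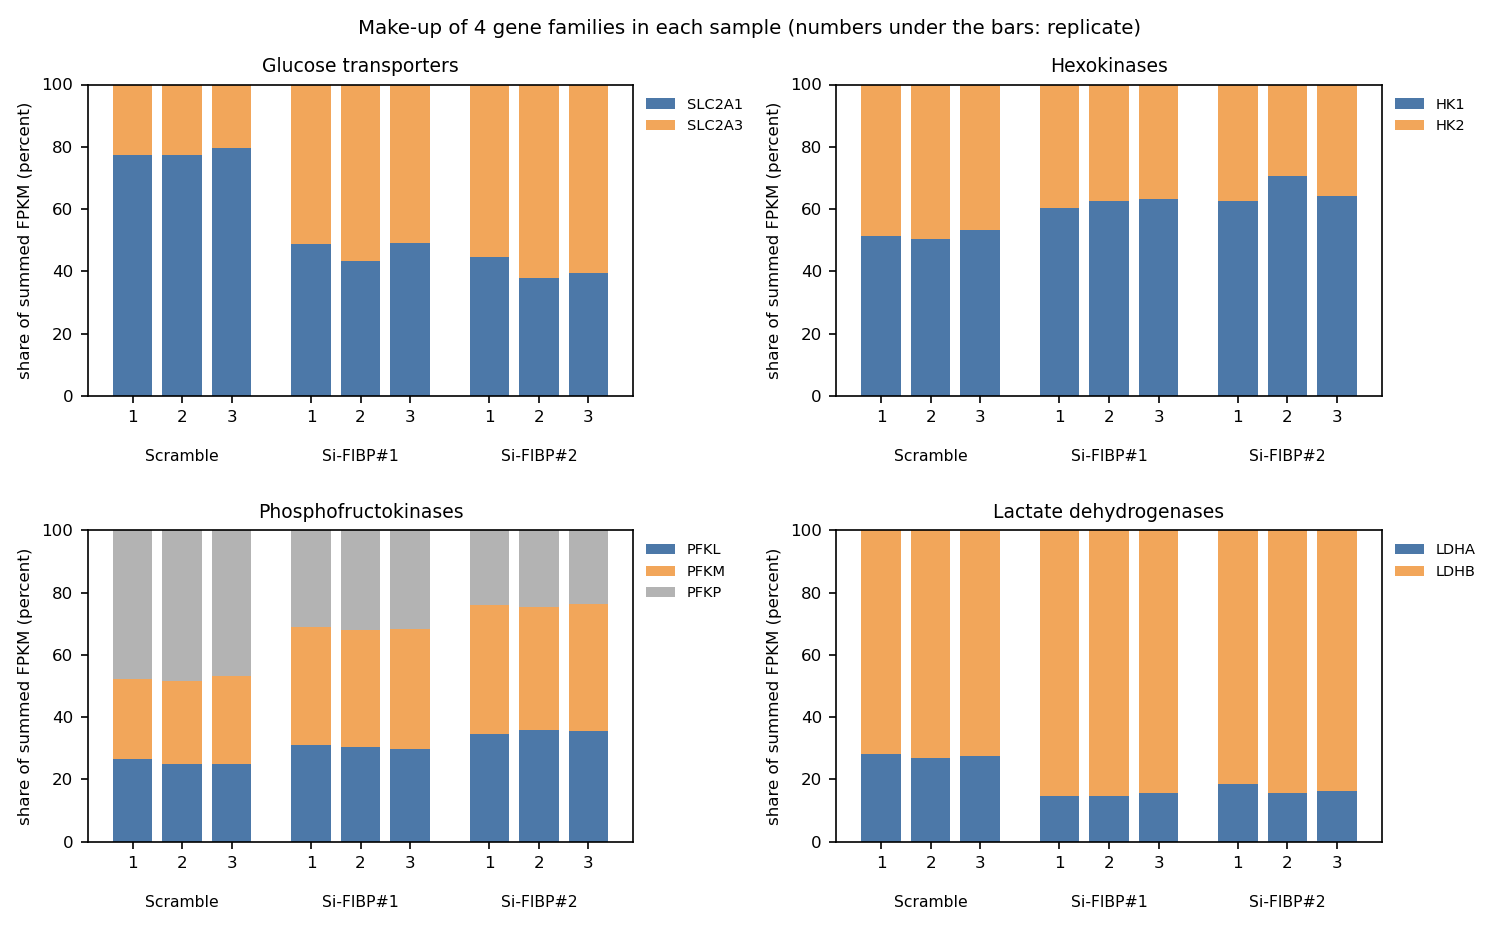
Share of each isozyme or transporter gene in the summed FPKM of its family (vertical axis, percent) for the 9 samples, with the replicate number under each bar. The shares of SLC2A1, HK2, PFKP and LDHA are lower in all 6 depleted samples than in the 3 Scramble samples.

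ALDOA, the main aldolase, stood at 937, 844 and 858 FPKM in Scramble, at 541, 613 and 543 with Si-FIBP#1 and at 624, 670 and 636 with Si-FIBP#2. The Scramble samples were all higher than the depleted ones. The log2 fold changes were -0.64 ± 0.061 (adjusted p = 3.2e-05, limma) and -0.45 ± 0.061 (adjusted p = 0.00027). ALDOC, the brain-type aldolase, did not exceed 0.69 FPKM. The isomerases did not fall. GPI, which converts glucose phosphate to fructose phosphate, ran from 257 to 302 FPKM over the 9 samples and passed with Si-FIBP#1 (0.15 ± 0.048, adjusted p = 0.0274) but not with Si-FIBP#2 (0.099 ± 0.048, adjusted p = 0.119). Its call was lost without each of Scramble replicates 2 and 3 and Si-FIBP#1 replicates 1 and 2 (0.13 to 0.15, adjusted p from 0.0684 to 0.0992). It was also lost under median-ratio scaling (0.071, adjusted p = 0.25), TPM scaling (0.11, adjusted p = 0.0817), no filter (adjusted p = 0.0524) and on annotated transcripts alone (0.14, adjusted p = 0.0616). Assembled transcripts made up 52.1% of GPI. TPI1, which interconverts the triose phosphates, rose from 765 ± 22.7 FPKM to 917 ± 29.0 with Si-FIBP#1 (0.26 ± 0.041, adjusted p = 0.00062) and stood at 813 ± 22.1 with Si-FIBP#2 (0.089 ± 0.041, adjusted p = 0.0994). Of the 8 upper glycolysis genes tested, Si-FIBP#1 samples had 3 lower and 4 higher (all genes 19.9% and 27.8%), and Si-FIBP#2 samples 3 lower and 3 higher (all genes 17.7% and 31.1%).

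The lower part of glycolysis, which returns ATP, showed falls in GAPDH, PGK1, ENO1 and PKM. GAPDH, which oxidises glyceraldehyde phosphate, ranked 6 among all genes by level in the Scramble samples. It stood at 7648, 6945 and 6928 FPKM there, at 5487, 5155 and 4794 with Si-FIBP#1, and at 5626, 4477 and 5456 with Si-FIBP#2. No depleted sample reached the lowest Scramble sample, and Si-FIBP#2 replicate 2 was the lowest of all 9. This was 71.7% and 72.3% of the Scramble mean, a log2 fold change of -0.48 ± 0.087 (adjusted p = 0.0015, limma) and -0.47 ± 0.087 (adjusted p = 0.0016). Over the fits that left out 1 sample, the value of Si-FIBP#2 ran from -0.54 to -0.37, the latter without Si-FIBP#2 replicate 2, and it passed in all 9. One transcript, ENST00000229239, carried 98.1% of the gene in the Scramble samples, and the 62 GAPDH pseudogenes listed together had 2.89 FPKM.

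PGK1, which makes the first ATP of the pathway, stood at 270.9, 261 and 263 FPKM in Scramble, at 178, 180 and 184 with Si-FIBP#1 and at 129, 138 and 120 with Si-FIBP#2. The 3 groups were fully separated, with Si-FIBP#2 lowest. Its log2 fold changes were -0.55 ± 0.052 (adjusted p = 3.1e-05, limma) and -1.03 ± 0.052 (adjusted p = 1.1e-06). The fall with Si-FIBP#2 was just over 2-fold and came to -0.98 without Si-FIBP#2 replicate 3 and on annotated transcripts alone, which left 2 members past 2-fold there.

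ENO1, the main enolase, had 1955 ± 70.2 FPKM (SD, n = 3) in the Scramble samples, 1345 ± 34.6 with Si-FIBP#1 and 1367 ± 67.1 after Si-FIBP#2, and its lowest Scramble sample (1909) was above its highest depleted sample (1419). The log2 fold changes were -0.54 and -0.52 (adjusted p = 1.6e-05 and 2.3e-05, limma). PKM, pyruvate kinase, stood at 940, 875 and 891 FPKM in Scramble, at 569, 538 and 534 with Si-FIBP#1 and at 665, 554 and 641 with Si-FIBP#2. Here too the Scramble samples were all above the depleted ones. The fall of PKM was -0.72 ± 0.066 (adjusted p = 2.5e-05) and -0.54 ± 0.066 (adjusted p = 0.00015) on the log2 scale. PGAM1, the mutase between PGK1 and enolase, did not fall. It ran from 393 to 459 FPKM and passed with Si-FIBP#2 alone, at 0.14 ± 0.042 (adjusted p = 0.0201), but not without Scramble replicate 2 (0.14, adjusted p = 0.0598), without Scramble replicate 3 (0.12, adjusted p = 0.0762) or under median-ratio scaling (0.018, adjusted p = 0.737).

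The minor enolases had wider spreads. ENO2, the neuronal enolase, ranged over 23.4 to 36.3 FPKM in Scramble, 19.2 to 21.1 in the Si-FIBP#1 group and 31.6 to 36.1 in the Si-FIBP#2 group. The Scramble spread came from replicate 1, at 36.3 against 24.7 and 23.4. ENO2 passed on the lower side with Si-FIBP#1 (-0.43 ± 0.14, adjusted p = 0.03, limma) and was at 0.27 ± 0.14 with Si-FIBP#2 (adjusted p = 0.136). Without Scramble replicate 1 the values were -0.24 (adjusted p = 0.0371) and 0.46 (adjusted p = 0.00174). The call with Si-FIBP#1 was lost without any 1 of the Si-FIBP#1 replicates (adjusted p from 0.0543 to 0.0883), on annotated transcripts alone (adjusted p = 0.056), with only the groups compared (adjusted p = 0.0509) and with no filter (adjusted p = 0.0857). ENO3, the muscle enolase, stood at 8.27, 3.55 and 5.22 FPKM in Scramble, at 5.22, 5.82 and 6.61 with Si-FIBP#1 and at 9.94, 9.02 and 8.42 with Si-FIBP#2. The Si-FIBP#2 samples were all above the others, the highest Scramble sample being close behind. It passed with Si-FIBP#2 (0.66 ± 0.21, adjusted p = 0.0286), but without Scramble replicate 2 the value was 0.41 (adjusted p = 0.08), and it was also lost without Scramble replicate 3 and Si-FIBP#2 replicates 1 and 2 (0.64, 0.60 and 0.67, adjusted p from 0.0627 to 0.0799). Median-ratio scaling (0.55, adjusted p = 0.0536), annotated transcripts alone (0.76, adjusted p = 0.0701), only the groups compared (adjusted p = 0.0535) and no filter (adjusted p = 0.0859) ended the call too. Assembled transcripts made up 40.6% of ENO3.

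Of the lactate genes, LDHA alone passed. LDHA encodes the subunit of lactate dehydrogenase that favours the formation of lactate from pyruvate. It stood at 487, 469 and 490 FPKM in Scramble, at 209, 215 and 230 with Si-FIBP#1 and at 274, 218 and 242 with Si-FIBP#2. The highest depleted sample was far below the lowest Scramble sample. LDHA was at 45.2% and 50.8% of the Scramble mean, with log2 fold changes of -1.14 ± 0.076 (adjusted p = 3.4e-06, limma) and -0.98 ± 0.076 (adjusted p = 9.6e-06). The fall with Si-FIBP#2 lay just under 2-fold in this fit and was over 2-fold without Si-FIBP#2 replicate 1 (-1.07) and under median-ratio scaling (-1.10). It was also just past 2-fold without Scramble replicate 2.

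LDHB, the subunit prevalent in oxidative tissue, stood at 1242, 1273 and 1289 FPKM in Scramble, at 1220, 1251 and 1225 with Si-FIBP#1 and at 1208, 1164 and 1242 with Si-FIBP#2. Nearly all of it came from ENST00000350669 and ENST00000673047, which were listed with equal length and equal values, so that the level of LDHB depends on whether they share fragments or repeat them. The groups overlapped, and the log2 fold changes were -0.042 ± 0.037 (adjusted p = 0.38, limma) and -0.074 ± 0.037 (adjusted p = 0.124). Under median-ratio scaling LDHB with Si-FIBP#2 was at -0.20 (adjusted p = 0.00622). LDHA made up 27.5% ± 0.61 of the lactate dehydrogenase FPKM in the Scramble samples, 15.0% ± 0.67 with Si-FIBP#1 and 16.9% ± 1.44 after Si-FIBP#2. With the equal LDHB transcripts counted once, an alternative chosen after seeing the data, these shares were 43.1% ± 0.74, 26.0% ± 1.04 and 28.7% ± 2.10. The lactate carriers did not pass. SLC16A1, which encodes MCT1, ran from 26.1 to 30.5 FPKM over the 9 samples, and SLC16A3, the lactate exporter MCT4, from 83.9 to 125 FPKM. The values of SLC16A3 were -0.22 ± 0.096 (adjusted p = 0.0887) and -0.072 ± 0.096 (adjusted p = 0.565), and the former passed under TPM scaling (-0.26, adjusted p = 0.043) and median-ratio scaling (-0.30, adjusted p = 0.0235).

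The PFKFB enzymes make and break the fructose bisphosphate that activates phosphofructokinase. PFKFB3, the form with the highest kinase activity, stood at 11.0, 9.76 and 10.8 FPKM in Scramble, at 8.98, 6.68 and 7.93 with Si-FIBP#1 and at 5.09, 6.49 and 5.79 with Si-FIBP#2. All depleted samples were below the Scramble samples. Its log2 fold changes were -0.38 ± 0.11 (adjusted p = 0.0203, limma) and -0.76 ± 0.11 (adjusted p = 0.00048). The call with Si-FIBP#1 was lost without Scramble replicate 1 (-0.35, adjusted p = 0.0605), Scramble replicate 3 (-0.36, adjusted p = 0.0595) or Si-FIBP#1 replicate 2 (-0.28, adjusted p = 0.0761), and with no filter (adjusted p = 0.0523). PFKFB2, the heart-type form, rose with Si-FIBP#1 from 2.81 ± 0.33 to 4.34 ± 0.38 FPKM (0.49 ± 0.12, adjusted p = 0.0088) and had 3.40 ± 0.59 with Si-FIBP#2 (0.20 ± 0.12, adjusted p = 0.2). PFKFB4 did not pass and ran from 4.16 to 6.34 FPKM.

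The pyruvate dehydrogenase kinases, which shut pyruvate out of the citric acid cycle, did not pass with either siRNA. PDK2 was the most abundant, at 21.1, 13.8 and 16.8 FPKM in Scramble, at 22.5, 22.1 and 18.9 with Si-FIBP#1 and at 18.5, 15.1 and 19.3 with Si-FIBP#2. The groups overlapped, and the spread of the Scramble samples was wide. Its log2 fold changes were 0.30 ± 0.14 (adjusted p = 0.12, limma) and 0.041 ± 0.14 (adjusted p = 0.835), and without Scramble replicate 1 the former was 0.44 (adjusted p = 0.0211). PDK1, a classical HIF target, ran from 3.70 to 4.50 FPKM, and its values of -0.17 ± 0.078 (adjusted p = 0.109) and -0.056 ± 0.078 (adjusted p = 0.584) did not pass, but the former did under median-ratio scaling (-0.23, adjusted p = 0.0324). PDK3 ran from 1.15 to 1.83 FPKM, and PDK4 did not exceed 0.48.

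HIF1A, the oxygen-regulated subunit of HIF-1, stood at 41.9, 39.9 and 40.3 FPKM in Scramble, at 43.5, 41.4 and 43.4 with Si-FIBP#1 and at 43.8, 42.2 and 45.8 with Si-FIBP#2. The ranges of Scramble and Si-FIBP#1 overlapped, and those of Scramble and Si-FIBP#2 were separated by less than 1 FPKM. Its log2 fold changes of 0.071 ± 0.052 (adjusted p = 0.285, limma) and 0.11 ± 0.052 (adjusted p = 0.113) did not pass and were about as large as the median of all genes. HIF alpha subunits are regulated mainly at the protein level, which these data do not measure. EPAS1, which encodes HIF-2 alpha, was low at 1.19 to 1.74 FPKM and did not pass. EGLN1, the main prolyl hydroxylase, rose with Si-FIBP#1 from 15.5 ± 0.62 to 19.0 ± 1.11 FPKM (0.28 ± 0.076, adjusted p = 0.0132), but not past the test without Scramble replicate 3 (0.25, adjusted p = 0.0505), without Si-FIBP#1 replicate 2 (0.24, adjusted p = 0.0554) or under median-ratio scaling (0.21, adjusted p = 0.0553). Its value in the other comparison was 0.11 ± 0.076 (adjusted p = 0.256). EGLN3, a HIF-induced prolyl hydroxylase, did not exceed 0.29 FPKM.

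Of the 7 hypoxia-induced genes outside glycolysis that were tested, 2 were lower and 2 higher for either siRNA, which is near the shares of all genes (19.9% lower and 27.8% higher for Si-FIBP#1, 17.7% and 31.1% for Si-FIBP#2). CA9, the carbonic anhydrase often taken as a hypoxia marker, was listed at 0 in 6 of the 9 samples and did not exceed 0.13 FPKM. BNIP3, a mitophagy receptor and the most abundant of the group, stood at 47.9, 43.3 and 38.6 FPKM in Scramble, at 33.1, 34.9 and 38.2 with Si-FIBP#1 and at 36.8, 36.4 and 35.7 with Si-FIBP#2. The lowest Scramble sample lay close above the highest depleted one. Its log2 fold changes were -0.28 ± 0.081 (adjusted p = 0.0178, limma) and -0.24 ± 0.081 (adjusted p = 0.0328). Scramble replicate 1 was the highest, and without it the values were -0.21 (adjusted p = 0.0608) and -0.17 (adjusted p = 0.112). The call with Si-FIBP#1 was also lost without Si-FIBP#1 replicates 1 and 2 (-0.23 and -0.27) and stood at the threshold without Scramble replicate 2 (-0.28, adjusted p = 0.05), and that with Si-FIBP#2 without Scramble replicate 2 (-0.24) and without each Si-FIBP#2 replicate (-0.25, -0.24 and -0.23) and with no filter (adjusted p = 0.0707). The 39 BNIP3 pseudogenes listed had 6.53% of its level.

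ADM, the vasodilator peptide adrenomedullin, fell from 9.23 ± 1.38 FPKM to 6.92 ± 0.60 and 6.28 ± 0.94, with log2 fold changes of -0.36 ± 0.13 (adjusted p = 0.0398, limma) and -0.49 ± 0.13 (adjusted p = 0.0102). The call with Si-FIBP#1 passed in 4 of the 9 fits that left out 1 sample. It was lost without Scramble replicate 1 (-0.28, adjusted p = 0.131), Scramble replicate 2 (-0.34, adjusted p = 0.102), Si-FIBP#1 replicate 1 (-0.37, adjusted p = 0.0805), Si-FIBP#1 replicate 3 (-0.31, adjusted p = 0.122) and Si-FIBP#2 replicate 3 (-0.36, adjusted p = 0.0539), and with no filter (adjusted p = 0.0976). VEGFA, the angiogenic growth factor, rose from 20.02 ± 0.78 FPKM to 27.0 ± 1.34 and 25.1 ± 2.36 (0.41 ± 0.076 and 0.31 ± 0.076, adjusted p = 0.0017 and 0.0077), and under median-ratio scaling the latter was 0.19 (adjusted p = 0.0606). Its most abundant transcript, ENST00000372077 with 25.4% of the gene in the Scramble samples, did not rise (5.09 ± 0.72, 4.86 ± 0.74 and 4.76 ± 1.10 FPKM). P4HA1, a collagen prolyl hydroxylase, had 18.1 ± 1.76, 24.6 ± 2.21 and 22.9 ± 3.50 FPKM (0.42 ± 0.11 and 0.32 ± 0.11, adjusted p = 0.0126 and 0.0433). P4HA1 with Si-FIBP#2 was highest in replicate 2 (26.9 FPKM), without which it was 0.20 (adjusted p = 0.128), and it passed in 3 of the 9 fits that left out 1 sample. The others that lost it were those without Scramble replicates 2 and 3 (0.28 and 0.27), Si-FIBP#1 replicates 2 and 3 (0.32 in both) and Si-FIBP#2 replicate 1 (0.36). It was also lost under median-ratio scaling (0.20, adjusted p = 0.151), on annotated transcripts alone (0.30, adjusted p = 0.086), with only the groups compared (adjusted p = 0.0616) and with no filter (adjusted p = 0.104). NDRG1 (1.81 to 2.78 FPKM), ANKRD37 (3.02 to 4.75 FPKM) and BHLHE40 (4.59 to 10.9 FPKM) did not pass. ANKRD37 with Si-FIBP#1 was at 0.24 and passed without Scramble replicate 1 (0.32, adjusted p = 0.0494), and BHLHE40 with Si-FIBP#1 was at -0.27 and passed without Si-FIBP#2 replicate 2 (adjusted p = 0.0439), which at 10.9 FPKM set the spread of that gene.

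Between the siRNAs, 2 members were higher and 3 lower with Si-FIBP#2 than with Si-FIBP#1, against 9.58% and 5.8% of all genes, and 0 differed by over 2-fold, against 0.267% and 0.294% of all genes (0.701% and 0.447% with a pseudocount of 0.1). The balance turned with the scaling, as 6 members were higher and 2 lower under TPM scaling (all genes 12.2% and 4.11%) and 1 higher and 4 lower under median-ratio scaling (all genes 7.20% and 7.999%). PFKP was lower by 0.50 ± 0.050 on the log2 scale (-0.50, adjusted p = 0.00042, limma) and PGK1 by 0.49 ± 0.052 (-0.49, adjusted p = 0.00066), and for both all 3 Si-FIBP#2 samples lay below all 3 Si-FIBP#1 samples. ENO2 was higher by 0.70 ± 0.14 (adjusted p = 0.0104). These 3 held in all 9 fits that left out 1 sample. TPI1 was at -0.17 ± 0.041 (adjusted p = 0.0204), and did not pass without Si-FIBP#1 replicate 2 (-0.15, adjusted p = 0.0841), Si-FIBP#2 replicate 1 (-0.16, adjusted p = 0.0648) or Si-FIBP#2 replicate 3 (-0.16, adjusted p = 0.0768), under TPM scaling (-0.13, adjusted p = 0.0549), with only the groups compared (adjusted p = 0.0529) or with no filter (adjusted p = 0.0605). HK1 was at 0.27 ± 0.078 (adjusted p = 0.0481) and passed in 1 of the 9 fits, with values of 0.19 (without Si-FIBP#2 replicate 2) to 0.32, the one that passed being that without Si-FIBP#2 replicate 1. It was also lost under median-ratio scaling (0.23, adjusted p = 0.0688), on annotated transcripts alone (adjusted p = 0.0601), with only the groups compared (adjusted p = 0.0924) and with no filter (adjusted p = 0.0945). Residual FIBP did not differ between the siRNAs past the test (0.13 ± 0.18, adjusted p = 0.686). For GAPDH, ENO1 and LDHA, the differences were 0.006 ± 0.087, 0.022 ± 0.046 and 0.16 ± 0.076 (adjusted p = 0.972, 0.799 and 0.185).

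Of the marker genes, the most abundant were also lower in the depleted samples. KRT18, an epithelial keratin, had 476 ± 8.30 FPKM in the Scramble samples, 209 ± 16.4 with Si-FIBP#1 and 175 ± 28.4 with Si-FIBP#2. VIM, the mesenchymal intermediate filament, had 3232 ± 119, 2307 ± 144 and 1988 ± 345. Not all markers moved this way. CDH2, another mesenchymal marker, rose with either siRNA (log2 fold change 0.35 and 0.43, adjusted p = 0.0014 and 0.00043, limma), and FN1 was at 0.12 (adjusted p = 0.53) and -0.49 (adjusted p = 0.0175). In Si-FIBP#2 replicate 2, which was the lowest sample for VIM (1592) and KRT18 (143), GAPDH, SLC2A1, HK2, ENO1, PKM and LDHA were also the lowest of the Si-FIBP#2 samples, whereas PFKP, ALDOA, PGK1, PFKFB3 and ADM were the highest and BNIP3 lay between the others. Whether these move with the glycolytic genes for a common reason was not tested.

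A wider list of 70 genes of glucose metabolism and the hypoxia response, chosen by function, was read from the same fit. Of these, 57 could be tested. With Si-FIBP#1, 16 were higher and 10 lower, and with Si-FIBP#2, 22 were higher and 9 lower, which as shares of 57 stood close to the shares of all genes given above on the lower side and near or above them on the higher side. Under median-ratio scaling, where 56 of the genes were tested, 12 were higher and 12 lower with Si-FIBP#1 (21.4% each, all genes 22.5% and 24.1%) and 14 and 14 in the other comparison (25.0% each, all genes 22.3% and 24.55%), near the shares of all genes. The sub-lists were small, and their counts stand beside shares over all genes of 27.8% higher and 19.9% lower for Si-FIBP#1, and of 31.1% and 17.7% in the Si-FIBP#2 comparison. The glucose branch pathways (glycogen and pentose phosphate) had 2 higher and 4 lower of 11 with Si-FIBP#1, then 3 and 3 in the other comparison, and 1 and 4 in both under median-ratio scaling. Pyruvate entry to mitochondria had 4 higher and 2 lower of 11, then 6 and 1, which became 3 and 3, then 4 and 3 under that scaling. HIF regulation had 4 higher and 1 lower of 10, then 5 and 0, which became 3 and 1 in both. The remaining glycolysis genes had 1 higher and 0 lower of 7, then 2 higher and 1 lower, which became 1 and 1 of 6 in both. The other hypoxia-induced genes had 5 higher and 3 lower of 18, then 6 and 4, which became 4 and 3, then 5 and 5.

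The genes of that list that passed with a change over 2-fold included PC, RPIA, ANGPTL4 and MAFF. PC, pyruvate carboxylase, which feeds pyruvate into oxaloacetate, rose from 3.87 ± 0.54 FPKM to 8.90 ± 1.49 and 10.9 ± 2.90 (log2 fold change 1.02 and 1.27, adjusted p = 0.0015 and 0.00041, limma). RPIA, ribose phosphate isomerase of the pentose phosphate pathway, stood at 18.3 ± 0.55, 13.8 ± 0.85 and 6.71 ± 1.84 FPKM (-0.38 and -1.35, adjusted p = 0.0456 and 5.2e-05). ANGPTL4, a secreted inhibitor of lipoprotein lipase, stood at 38.3 ± 5.19, 40.5 ± 0.46 and 78.1 ± 10.2 FPKM (0.085 and 1.01, adjusted p = 0.555 and 7.3e-05). MAFF, a small MAF transcription factor, stood at 7.19 ± 0.38, 2.91 ± 0.38 and 4.54 ± 0.46 FPKM (-1.07 and -0.57, adjusted p = 3.4e-05 and 0.0016). The difference between the siRNAs passed for RPIA (-0.96, adjusted p = 0.0025), ANGPTL4 (0.92, adjusted p = 0.00097) and MAFF (0.50, adjusted p = 0.0118), but not for PC (0.25, adjusted p = 0.414).

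**Figure D4:**
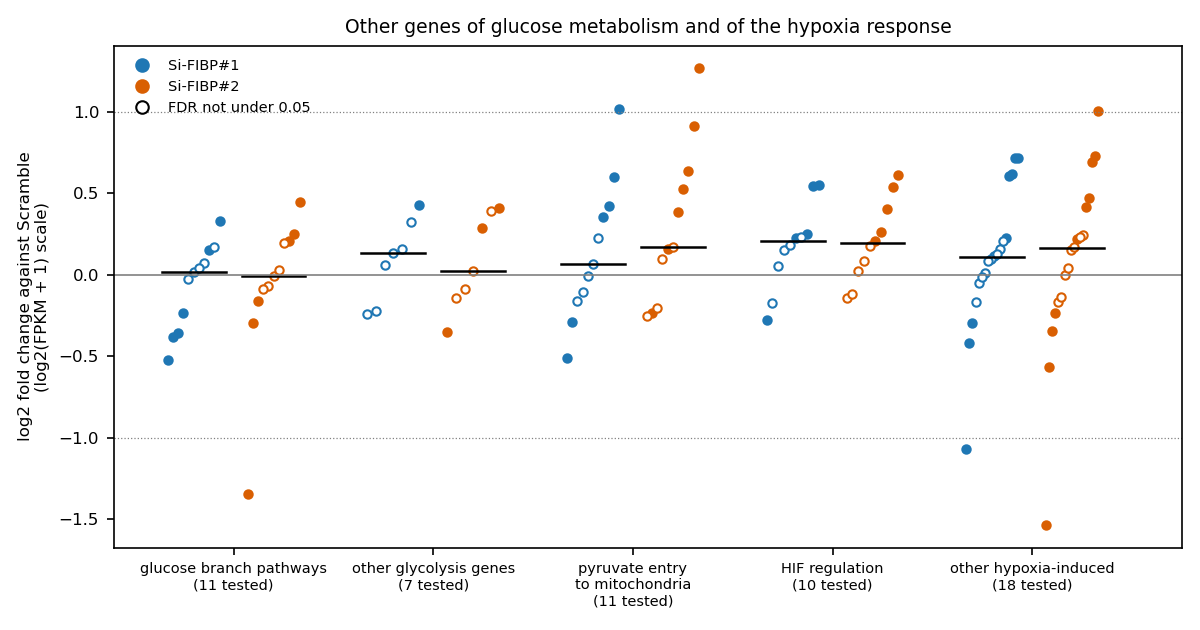
Log2 fold change against Scramble (vertical axis, on the log2(FPKM + 1) scale) of the 57 tested genes of 5 further lists, with Si-FIBP#1 in blue and Si-FIBP#2 in orange. Filled points passed the adjusted p of 0.05, open points did not, black lines are medians over the tested genes of a list and dotted lines mark a 2-fold change. Most points lie between the dotted lines, and PC is the highest point for either siRNA, at 1.02 and 1.27.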

How the data were processed

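RNA-seq was performed on 9 samples of H1299 cells, 3 per group, from poly(A) RNA and paired-end Illumina libraries. The deposited tables, 1 for each sample, give FPKM of annotated and assembled transcripts to 2 decimals, as calculated by the authors. The unit was inferred from the values. The submitters' processing notes name HISAT2 and StringTie without versions, and the genome build is not given in the sources used here. FPKM depend on effective transcript length, so that short transcripts, down to the fragment length of 260 to 300 nt inferred from the value steps, carry large errors. From these tables, FPKM were summed per gene over all 244443 transcripts, of which 14956 were assembled. A linear model with empirical Bayes and a trend (limma 3.58.1, R 4.3.3) was fitted to log2(FPKM + 1), a pseudocount of 1, of the 14985 genes that reached 1 FPKM in 3 or more samples. Adjustment over these genes followed Benjamini and Hochberg. A gene passed at FDR < 0.05 and was counted as over 2-fold at a fold change above 2. FPKM hold no counts, so that the depth is an estimate from the value steps and no counting interval is given. Fold changes on this scale understate those of genes near 1 FPKM.

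Groups were taken from the labels. Si-FIBP#1 and Si-FIBP#2 were each compared with Scramble and with each other. All 41 members are named, with every sample's value for those past the test with a fold change over 1.5 with either siRNA, for GAPDH and for the most abundant member of each role. Genes of the wider list are named where they passed with a fold change over 2. Some genes that met these rules or served as markers are not reported here. The members, the lists and the tests were chosen with earlier results of these data known. The alternatives were TPM or median-ratio scaling, another pseudocount (0.1), dropping the filter or raising it to 5 FPKM, a fit to the compared groups alone, the replicate number as a block, annotated transcripts only, transcripts of at least 400 nt (chosen after seeing the data) and leaving out each sample. The script was tested on simulated data. Promoter windows came from RefSeq (GRCh38.p14) and served for sequence only. No 2 samples had identical values. Python 3.11.15 with numpy 2.4.6, pandas 2.3.3 and matplotlib 3.10.9 drew the figures.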

Additional observations from a re-analysis of the deposited data

Results flagged for a closer look

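For 5 of the 37 members tested, the fold changes with the 2 siRNAs differed by the test of the difference itself in the limma fit. Of the members, 2 (5.41%) were higher and 3 (8.11%) lower with Si-FIBP#2, against 9.58% and 5.8% of all genes. As Si-FIBP#2 minus Si-FIBP#1 on the log2 scale, the differences were -0.502 for PFKP (59.4 ± 0.48 against 41.7 ± 0.94 FPKM, SD, n = 3), -0.487 for PGK1 (181 ± 2.95 against 129 ± 8.87 FPKM), 0.7 for ENO2 (20.3 ± 0.99 against 33.6 ± 2.34 FPKM), -0.173 for TPI1 (917 ± 29.0 against 813 ± 22.1 FPKM) and 0.266 for HK1 (20.1 ± 0.80 against 24.4 ± 2.60 FPKM). The adjusted p-values of PFKP, PGK1 and ENO2 were 0.00042, 0.00066 and 0.0104, and those of TPI1 and HK1 were 0.0204 and 0.0481. In the fits that left out 1 sample, TPI1 passed in 6 of 9 and HK1 in 1 of 9. Groups of 3 samples were too small to test for single samples that stand apart. Such samples are named above only by their values and by the fits without them.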

How the results depend on the processing

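Of the 47 member values past FDR 0.05 in the 3 comparisons, 30 passed under each alternative run (18, or 17 for PFKFB2, which a filter of 5 FPKM removed), 17 did not under at least 1, and 0 changed direction. The count of members past FDR 0.05 ran from 16 to 23 (Si-FIBP#1, 22 in the reported fit) and from 16 to 20 (Si-FIBP#2, 20 in the reported fit) when 1 sample was left out. Between the siRNAs it was 5, with 8 under TPM scaling (6 higher, 2 lower), 3 with no filter and 3 to 7 when 1 sample was left out, the 3 being without Si-FIBP#2 replicate 3. Of the 57 other genes tested, 16 differed between the siRNAs (9 higher and 7 lower, 15.8% and 12.3% against 9.58% and 5.8% of all genes), 8 with only the groups compared and 7 to 20 without 1 sample. Members past 2-fold with Si-FIBP#2 numbered 2 to 4. The values that changed sign had not passed. Under median-ratio scaling, which moved the median of all genes with Si-FIBP#2 from 0.11 to 0.0047, these were GPI (-0.024), TPI1 (-0.034), PDK2 (-0.075), HIF1A (-0.012) and EGLN1 (-0.004) with Si-FIBP#2, and PGAM1 (-0.045), SLC16A1 (-0.033), PFKFB4 (-0.052) and HIF1A (-0.007) with Si-FIBP#1. Under TPM scaling, PGAM1 (-0.011), SLC16A1 (0.000) and PFKFB4 (-0.025) with Si-FIBP#1 did. Without 1 sample, the ranges that crossed 0 were -0.147 to 0.367 (ENO3), -0.012 to 0.084 (SLC16A1), -0.065 to 0.166 (PFKFB4) and -0.107 to 0.12 (PDK3) with Si-FIBP#1, and -0.033 to 0.017 (SLC16A1), -0.137 to 0.035 (SLC16A3), -0.119 to 0.111 (PFKFB4), -0.099 to 0.19 (PDK2) and -0.077 to 0.074 (ANKRD37) with Si-FIBP#2. The cause was not tested. Correlations of same-numbered deviations were small, from -0.057 to 0.10 over 9 pairs, against -0.14 to 0.049 over 18 pairs of different number. Nonetheless, 8 of 9 samples correlated best with their own number, so that a weak pairing may be present. The reported fit did not use the number. With the replicate number as a block, 22, 18 and 5 members passed in the 3 comparisons. HK1 with Si-FIBP#1 and between the siRNAs, BNIP3 with Si-FIBP#2 and P4HA1 with Si-FIBP#2 no longer passed. SLC16A3 with Si-FIBP#1 did pass, and between the siRNAs another member passed in place of HK1. For members near 1 FPKM, such as EPAS1 and PDK3, the pseudocount of 1 understates the fold changes, and a limit set by depth was not tested. With 3 samples against 3, an exact permutation test cannot go below 0.1.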
